A study of Mus musculus with 10 samples.

Results

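The 34 genes described here encode the folding and retrieval machinery of the endoplasmic reticulum (ER): chaperones, disulphide isomerases, degradation factors, receptors that return escaped residents, stress sensors and translocon subunits. They were listed by name with earlier results of these data known, so their shares beside all genes describe the list and test nothing. Of the 34 genes, 33 had a probe set that carried their symbol alone, out of 19938 genes measured in this way. For each gene the probe set with the highest mean over all arrays was used. All 33 passed the level filter (a mean log2 signal of at least 6.23), as did 15662 genes in all. Kdelr2 had no such probe set and was not analysed here.

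The arrays measured total RNA of mouse acute myeloid leukaemia cells that expressed the MLL-AF9 fusion and were sorted as c-Kit-positive. The leukaemias were independent of each other, and all carried the tamoxifen-inducible recombinase Cre-ER, whose promoter the sources used here do not give. The fl lines 10949, 10950 and 10986 carried a floxed allele of the X-linked transcription factor gene Zfx (Zfx fl/y), and the wt lines 10977 and 10980 carried the wild-type allele (wt/y). Every line was split into a culture with 4-hydroxytamoxifen (4-OHT, 10 nM, to switch on Cre) and a culture with ethanol vehicle, both with IL-3, IL-6 and SCF for 72 h, and the c-Kit sort followed. This gave 3 fl 4-OHT, 3 fl vehicle, 2 wt 4-OHT and 2 wt vehicle arrays, and each line stands for 1 leukaemia. The series asked what deletion of Zfx does to gene expression in them.

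Proteins enter the ER through the Sec61 translocon and fold there with the help of BiP (Hspa5), GRP94 (Hsp90b1), lectin chaperones and disulphide isomerases. Many of these residents end in a KDEL-like signal, which KDEL receptors recognise in the Golgi to carry them back. Misfolded proteins are handed to the degradation machinery around Sel1l and Syvn1. When load rises, the sensors Atf6, Ern1 (IRE1) and Eif2ak3 (PERK) start the unfolded protein response, in which cleaved Atf6 and spliced Xbp1 switch on chaperone genes through the ER stress response element (ERSE). Myeloid progenitors make large amounts of granule protein through this route.

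The ERSE is shown here because it is the sequence through which many of these genes respond as one. Promoter windows from RefSeq (GRCm38.p6, 250 bases before to 50 after the gene start) were in the table for 29 of the 34 genes. They were searched on both strands for the ERSE, which is CCAAT, any 9 bases and CCACG. It was found in 9 genes (31.0%): Hspa5, Hsp90b1, Calr, Canx, Pdia6, Dnajc3, Creld2, Derl3 and Syvn1. Of all 32851 windows in the table, 39 (0.119%) held it. Since the genes were picked for this function, the share describes the list. In the stretches below, read 5′ to 3′ on the gene's strand, capitals mark the fixed letters of the element. The reverse form begins CGTGG.
Hspa5 (chr2:34772010-34772058, plus strand): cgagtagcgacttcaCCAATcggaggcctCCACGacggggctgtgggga
Pdia6 (chr12:17266476-17266524, plus strand): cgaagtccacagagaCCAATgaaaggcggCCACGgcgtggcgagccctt
Syvn1 (chr19:6046517-6046565, plus strand): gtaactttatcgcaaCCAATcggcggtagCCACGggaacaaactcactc
Creld2 (chr15:88819505-88819553, plus strand): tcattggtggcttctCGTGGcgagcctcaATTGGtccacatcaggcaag
Calr (chr8:84847060-84847108, minus strand): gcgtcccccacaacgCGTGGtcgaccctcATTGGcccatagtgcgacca
Hsp90b1 (chr10:86705518-86705566, minus strand): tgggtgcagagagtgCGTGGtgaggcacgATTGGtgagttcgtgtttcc

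The match lay 65 bases before the start in Hspa5 and 44 bases before it in Syvn1. Hsp90b1 held a second one further upstream. The shorter ERSE-II, which is ATTGG, any 1 base and CCACG, was in Herpud1 and Dnajb11 and in 0.0365% of all windows. The Xbp1-type element TGACGTGG was in Kdelr3 alone of the 29 and in 0.676% of all windows. Its reverse is in capitals in the Kdelr3 stretch.
Herpud1 (chr8:94386362-94386402, plus strand): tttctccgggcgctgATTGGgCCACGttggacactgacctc
Kdelr3 (chr15:79516363-79516400, plus strand): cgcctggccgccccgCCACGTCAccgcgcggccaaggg

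Kdelr1 is the gene with the largest difference reported below. Its window was among those of the 20 genes of 29 with no ERSE, and it also held no ERSE-II and no TGACGTGG. It also lacked the 5-letter parts CCAAT and CCACG, which 37.4% and 32.8% of all windows hold. The windows of Xbp1 and Sec61b also held none of the motifs searched. The palindrome AGGCCT, the core of published ZFX motifs, was not in the Kdelr1 window either. AGGCCT was in 3 of the 29 genes (10.3%), Hspa5, Pdia3 and Sel1l, and in 10.3% of all windows. In Hspa5 it overlaps the ERSE printed above. A match is a description of letters and no evidence of binding. The bases before the Kdelr1 start carry no capitals, since none of these motifs was found.
Kdelr1 (chr7:45872590-45872839, plus strand): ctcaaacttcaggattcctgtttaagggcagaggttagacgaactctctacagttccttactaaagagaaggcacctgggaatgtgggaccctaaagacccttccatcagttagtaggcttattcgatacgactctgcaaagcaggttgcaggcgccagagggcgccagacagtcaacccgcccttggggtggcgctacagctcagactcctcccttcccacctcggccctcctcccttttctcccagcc

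**Figure D1:**
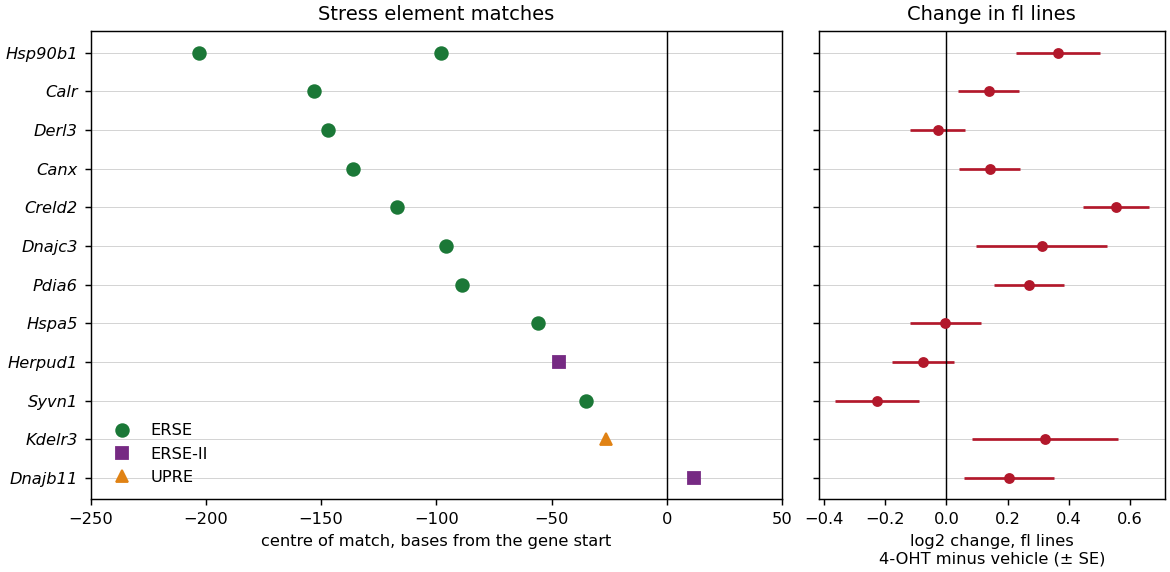
Left, the centre of each ERSE, ERSE-II and TGACGTGG (UPRE) match in bases from the gene start. Right, the log2 change with 4-OHT in the fl lines (3 line pairs, bars are the standard error of the limma fit). The ERSE genes ran from -0.23 (Syvn1) to 0.55 (Creld2), and Hspa5 lay at the zero line. The 2 ERSE matches of Hsp90b1 are both drawn.

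Before the members' values, a few facts on the arrays bear on them. Levels are log2 of the deposited RMA intensities, and array medians were 144.7 to 158.2 on the linear scale. Zfx itself stood at 9.98 to 10.07 on fl 4-OHT arrays and 9.24 to 10.09 on fl vehicle arrays. Wt levels were 9.90 to 10.04 under 4-OHT and 10.07 to 10.12 under vehicle. Where its probes lie relative to the deleted exons is not known here, so these levels check nothing, and the fl 4-OHT arrays are taken as deleted by their label alone. All 9 marker genes of c-Kit-positive myeloid progenitors and MLL-AF9 cells passed the level filter, among them Kit, Hoxa9, Meis1 and Myb. Of 8 measured plasma and B cell markers, Jchain, Prdm1, Cd79a and Ms4a1 lay below it. Cd79b of that list lay well above it, at 10.48 to 11.03 on fl 4-OHT arrays, 9.51 to 10.68 on fl vehicle arrays and 9.52 to 10.05 on wt arrays, and was higher with 4-OHT in each fl line.

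One array was unlike the rest, the vehicle culture of line 10986. Its score on principal component 1 (47.2% of the variance) was 49.4, against -20.4 to 23.0 for the other 9 arrays. The ER genes took part in this. Of the 33 members, 19 (57.6%) had their lowest level of all 10 arrays on it, against 26.1% of all genes tested, and 2 (6.06%) had their highest on it, against 27.1%. The members' mean level was 10.60 on that array and 10.75 to 10.94 on the other 9. All genes tested averaged 8.30 on it and 8.35 to 8.42 elsewhere. The members thus stood higher in level than genes in general, and the shares above were not matched for level. Since this array stood apart, the fl lines are also given one by one below. Their values are log2 differences of 4-OHT minus vehicle, in the order 10949, 10950 and 10986.

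The largest difference among the members was in Kdelr1, which encodes a KDEL receptor. It stood at 9.55, 9.38 and 9.76 on the 4-OHT arrays of fl lines 10949, 10950 and 10986, against 11.03, 10.53 and 10.53 on their vehicle arrays. In wt lines 10977 and 10980 it stood at 10.86 and 10.80 under 4-OHT, against 10.92 and 10.96 under vehicle. All 3 fl 4-OHT arrays lay below all other 7 arrays. Such a separation downward was seen in 3.86% of all genes tested and, among the members, in Kdelr1 and Ern1.

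Between genotypes under 4-OHT, Kdelr1 was 2.40-fold lower in the fl lines than in the wt lines. The log2 difference was -1.26 (SE 0.17, 3 against 2 lines, limma adjusted p = 0.0259). It was the only member called in that comparison, 1 of 33, where 101 of 15662 genes (0.645%) were called, 72 of them lower in fl lines (0.46%) and 29 higher (0.185%). Under vehicle the fl minus wt difference was -0.24 (SE 0.17, limma adjusted p = 0.546). The call rests on few lines: it ended without line 10949 (-1.26, adjusted p = 0.0631), 10950 (-1.17, adjusted p = 0.132), 10977 (-1.24, adjusted p = 0.142) or 10980 (-1.29, adjusted p = 0.409). With 1 wt line left, its arrays are assumed to vary like the fl arrays. Without line 10986 it held, at -1.36 (adjusted p = 0.0358).

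Within the fl lines the Kdelr1 change with 4-OHT was -1.48, -1.14 and -0.77 in lines 10949, 10950 and 10986, a mean of -1.13 (SE 0.14). It did not pass over all genes (limma adjusted p = 0.0576), and 32 of 15662 genes had a smaller p. Without line 10986, whose vehicle array stood apart, it passed at -1.31 (adjusted p = 0.00212). In that setting 440 of all genes were called, against 24. It also passed when the line was not used as a block (-1.13, adjusted p = 0.0457). Over the 14 alternative settings given at the end it passed in 5, and it did not pass without line 10949 or line 10950. The wt changes were -0.06 and -0.16. Set against the wt change, the fl change was more negative by an estimate of -1.02 (SE 0.23, limma adjusted p = 0.677), which did not pass. Without line 10986 that estimate passed, at -1.20 (adjusted p = 0.0436), and it passed in 2 of the 14 settings. The fl 4-OHT arrays serve both comparisons, so these are views of the same 3 arrays.

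The other measured KDEL receptor, Kdelr3, did not follow. It stood at 8.14, 7.93 and 8.57 on the fl 4-OHT arrays, against 8.46, 7.70 and 7.51 on the fl vehicle arrays. Its changes of -0.33, 0.23 and 1.06 ran both ways (mean 0.32, SE 0.24, limma adjusted p = 0.697). On the wt arrays it stood at 7.91 and 7.18 under 4-OHT, against 7.92 and 7.32 under vehicle. Line 10977 exceeded line 10980 in both cultures, and within each wt line the cultures were -0.00 and -0.14 apart.

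**Figure D2:**
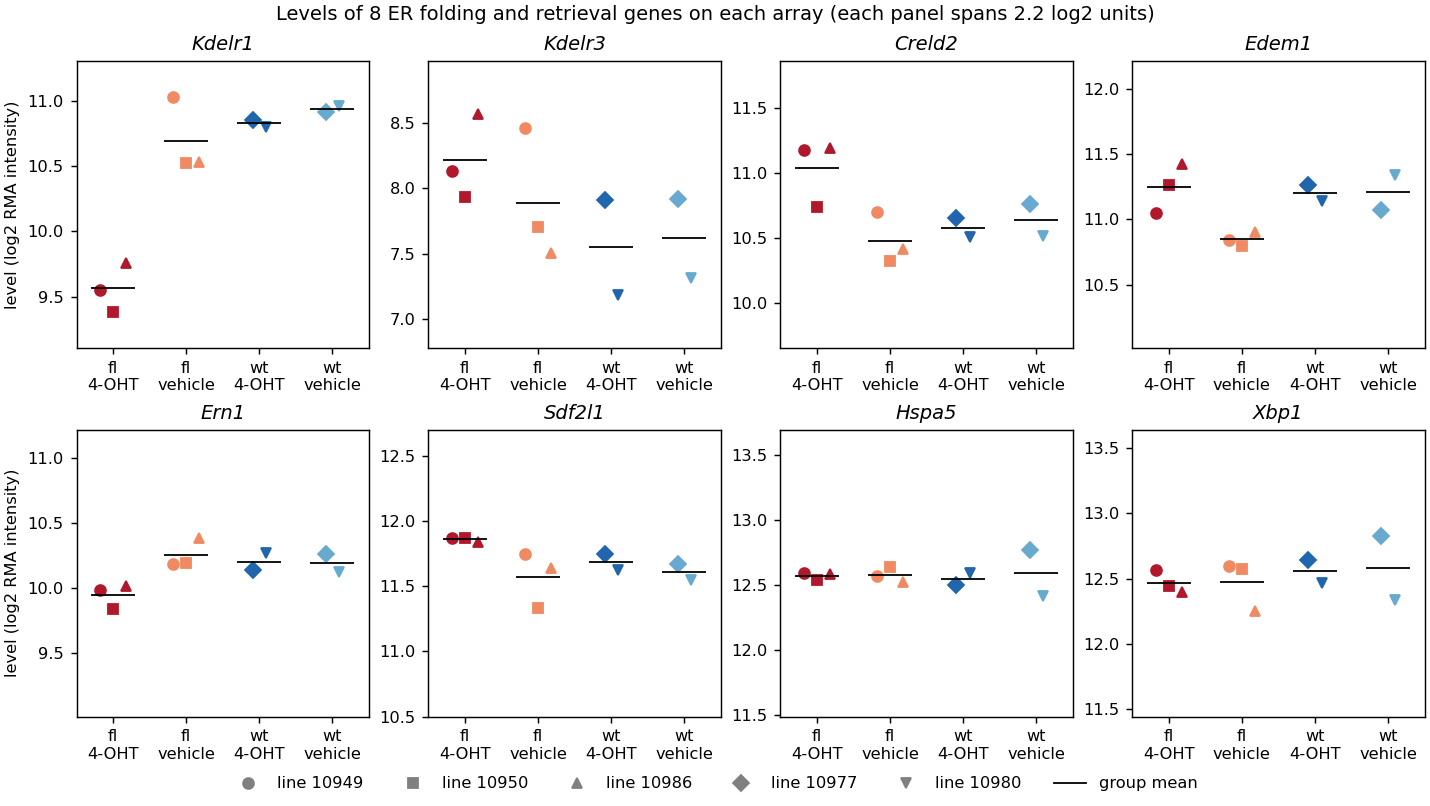
Log2 RMA intensity of 8 members on every array, in the groups fl 4-OHT, fl vehicle, wt 4-OHT and wt vehicle. Marker shapes stand for the 5 lines and bars for group means. The Kdelr1 levels of the fl 4-OHT arrays, 9.38 to 9.76, lie below all others, while Hspa5 and Xbp1 overlap between all groups.

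Across the members, no gene passed in the fl lines with 4-OHT. By limma 0 of 33 were called, where 24 of 15662 genes (0.153%) were, 8 higher (0.0511%) and 16 lower (0.102%). At an unadjusted p under 0.05 there were 9 members (27.3%), against 12.3% of all genes, 7 of them upward and 2 (Kdelr1 and Ern1) downward. The members' median change was 0.19, against 0.00 for all genes tested. By line the median was 0.02, 0.12 and 0.39 in lines 10949, 10950 and 10986, against -0.01, 0.04 and -0.04 for all genes. Without line 10986 it was 0.06.

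The upward shift was largest in line 10986. In it 15 members (45.5%) had a change above 0.5, against 19.5% of all genes. In line 10949 none did, against 2.26% of all genes, and in line 10950 only Sdf2l1 did, against 1.69%. Over the 3 fl lines, 10 members (30.3%) were up in each, against 14.6% of all genes, and 3 (9.09%) were down in each, against 14.5%. Taken line by line, 17 members were up in line 10949 (47.4% of all genes were), 22 in line 10950 (57.5%) and 24 in line 10986 (45.5%).

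**Figure D3:**
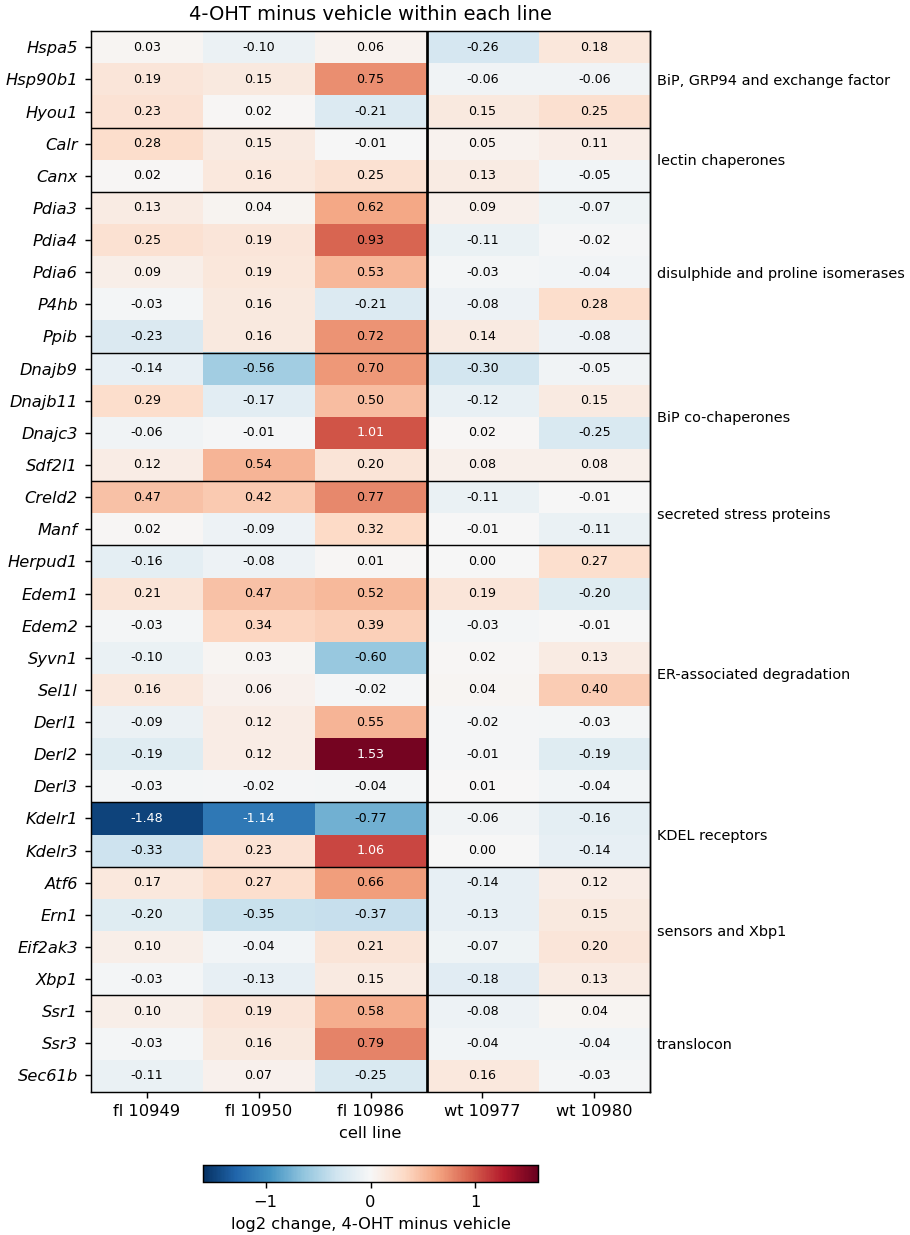
Log2 change with 4-OHT within each line for the 33 measured members, ordered by role. Columns are the fl lines and then the wt lines. Kdelr1 is the only member under -0.7 in any line, and line 10986 holds the largest upward values, up to 1.53 in Derl2.

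Hspa5 encodes BiP, the Hsp70 of the ER lumen whose level is the usual readout of ER stress. It stood at 12.59, 12.54 and 12.58 on the fl 4-OHT arrays, against 12.57, 12.64 and 12.52 on the fl vehicle arrays. On the wt arrays it stood at 12.50 and 12.59 under 4-OHT, against 12.77 and 12.42 under vehicle. The groups overlapped, and the fl change was -0.00 (SE 0.12, limma adjusted p = 1 over 3 line pairs). Hyou1, the Hsp70-like exchange factor of BiP, had differences of 0.23, 0.02 and -0.21 in the 3 fl lines.

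Hsp90b1, the Hsp90 of the ER, stood at 12.81, 12.48 and 12.76 on the fl 4-OHT arrays, against 12.62, 12.32 and 12.02 on the fl vehicle arrays. It stood at 12.42 and 12.48 on the wt 4-OHT arrays, against 12.48 and 12.54 on the wt vehicle arrays. Each fl line was higher under 4-OHT and both wt lines lower, but the fl groups overlapped. The fl change of 0.36 (SE 0.14, limma adjusted p = 0.345) did not pass, and by line it was 0.19, 0.15 and 0.75, highest in line 10986.

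The lectin chaperones hold newly glycosylated proteins until they fold. Calr had differences of 0.28, 0.15 and -0.01 in fl lines 10949, 10950 and 10986. Canx had differences of 0.02, 0.16 and 0.25, and its fl 4-OHT arrays (13.33 to 13.39) lay above its fl vehicle arrays (13.14 to 13.32). Neither passed (limma adjusted p = 0.678 and 0.668). Wt changes were 0.05 and 0.11 for Calr and 0.13 and -0.05 for Canx, of the same size as the smaller fl changes.

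Among the enzymes that form disulphides or turn proline bonds, Pdia4 had the largest estimate. It stood at 12.14, 11.74 and 12.10 on the fl 4-OHT arrays, against 11.89, 11.55 and 11.18 on the fl vehicle arrays. The wt arrays held 11.82 and 11.95 under 4-OHT, against 11.92 and 11.97 under vehicle. Its lowest level was on the vehicle array of line 10986, and its fl change was 0.46 (SE 0.16, limma adjusted p = 0.302). A second, dimmer Pdia4 probe set had differences of 0.18, -0.02 and 0.06 in the same lines.

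Pdia3, which works with the lectin chaperones, and Pdia6 had differences of 0.13, 0.04 and 0.62 and by 0.09, 0.19 and 0.53 in the fl lines. Ppib, the ER cyclophilin, had differences of -0.23, 0.16 and 0.72. P4hb, the founding disulphide isomerase, went the other way in line 10986, with -0.03, 0.16 and -0.21. The median of these 5 genes was 0.09, 0.16 and 0.62 in the 3 fl lines, against -0.03 and -0.04 in wt lines 10977 and 10980.

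Of the BiP co-chaperones, Sdf2l1 was higher under 4-OHT in each fl line. It stood at 11.87, 11.87 and 11.84 on the fl 4-OHT arrays, against 11.75, 11.33 and 11.64 on the fl vehicle arrays. On the wt arrays it stood at 11.75 and 11.62 under 4-OHT, against 11.67 and 11.55 under vehicle. The fl 4-OHT arrays lay above all other 7, a pattern found upward in 1.77% of all genes and, among the members, in Sdf2l1 and Ssr1. The fl change was 0.29 (SE 0.11, limma adjusted p = 0.366), and both wt lines were also higher, by 0.08 each.

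The J-domain genes differed between the fl lines. Dnajb9 (ERdj4), which restrains IRE1, had differences of -0.14, -0.56 and 0.70 in the fl lines. Dnajc3 (p58IPK) had differences of -0.06, -0.01 and 1.01, and its second probe set held identical values. Dnajb11 (ERdj3) had differences of 0.29, -0.17 and 0.50. None passed, with limma adjusted p of 1, 0.66 and 0.676.

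Creld2, an ER stress-induced gene with isomerase activity, had the smallest p of the members with an upward estimate. It stood at 11.17, 10.74 and 11.19 on the fl 4-OHT arrays, against 10.70, 10.33 and 10.42 on the fl vehicle arrays. Its wt levels were 10.66 and 10.51 under 4-OHT, against 10.76 and 10.52 under vehicle. The fl groups did not overlap, and the changes were 0.47, 0.42 and 0.77 in the fl lines, against -0.11 and -0.01 in the wt lines. The mean over the 3 fl lines, 0.55 (SE 0.11, limma adjusted p = 0.116), did not pass, though it did without line 10986, at 0.44 (adjusted p = 0.0487). It passed in 2 of the 14 alternative settings.

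Against the wt lines under 4-OHT, Creld2 was higher by 0.45 in the fl lines (SE 0.16, limma adjusted p = 0.329), which did not pass. The fl minus wt difference under vehicle was -0.16 (SE 0.16). Manf, which like Creld2 is secreted under stress, had differences of 0.02, -0.09 and 0.32 in the fl lines. Separation of the fl 4-OHT arrays above the fl vehicle arrays, as in Creld2, was found in 5 members (15.2%) and in 4.55% of all genes. The other 4 were Edem1, Sdf2l1, Ssr1 and Canx. The opposite separation was found in Kdelr1 and Ern1 (6.06%) and in 7.27% of all genes. Against the wt 4-OHT arrays, the fl 4-OHT arrays lay apart upward in 6 members (12.6% of all genes) and downward in 5 (14.2%).

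The degradation genes showed no common direction. Edem1, which hands misfolded glycoproteins to degradation, stood at 11.05, 11.27 and 11.43 on the fl 4-OHT arrays, against 10.84, 10.80 and 10.90 on the fl vehicle arrays. Wt levels were 11.26 and 11.14 under 4-OHT, against 11.07 and 11.34 under vehicle. The fl vehicle arrays were the low ones: the fl 4-OHT arrays overlapped both wt groups. The fl change was 0.40 (SE 0.12, limma adjusted p = 0.239) and the fl minus wt difference under vehicle was -0.36 (SE 0.13, limma adjusted p = 0.485).

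Edem2 had differences of -0.03, 0.34 and 0.39 in the fl lines. The ubiquitin ligase gene Syvn1 had differences of -0.10, 0.03 and -0.60, downward in the line where most members were up. Its partner Sel1l had differences of 0.16, 0.06 and -0.02. The fl arrays of Sel1l lay below the wt arrays in both cultures, as 12.1% of all genes did under vehicle. It stood at 10.17, 10.21 and 10.10 on the fl 4-OHT arrays, against 10.51 and 10.73 on the wt 4-OHT arrays. The fl vehicle arrays held 10.00, 10.15 and 10.12, against 10.47 and 10.33 on the wt vehicle arrays. The fl minus wt difference was -0.46 under 4-OHT (SE 0.11, limma adjusted p = 0.113) and -0.31 under vehicle (SE 0.11, limma adjusted p = 0.465). Herpud1, an adaptor of the same complex, had fl minus wt differences of -0.42 and -0.22 and had differences of -0.16, -0.08 and 0.01 in the fl lines.

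The derlins, channel proteins of this pathway, were unlike each other. Derl2 had differences of -0.19, 0.12 and 1.53 in the fl lines, the widest spread of any member. Its level on the vehicle array of line 10986 was 8.64, against 10.09 and 9.14 on the other fl vehicle arrays. Derl1 had differences of -0.09, 0.12 and 0.55. Derl3 had differences of -0.03, -0.02 and -0.04, and its levels of 6.98 to 7.25 were the closest of the members to the level filter.

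No sensor passed the test, and their estimates differed in sign. Ern1, which encodes the kinase and nuclease IRE1, stood at 9.98, 9.84 and 10.02 on the fl 4-OHT arrays, against 10.18, 10.19 and 10.39 on the fl vehicle arrays. Its wt levels were 10.14 and 10.27 under 4-OHT, against 10.26 and 10.12 under vehicle. The fl 4-OHT arrays lay below all others. The change of -0.31 (SE 0.10, limma adjusted p = 0.294) did not pass.

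Atf6, the sensor that is cut in the Golgi to free a transcription factor, stood at 11.08, 10.65 and 10.87 on the fl 4-OHT arrays, against 10.91, 10.38 and 10.20 on the fl vehicle arrays. Levels in the wt lines were 10.58 and 10.69 under 4-OHT, against 10.71 and 10.57 under vehicle. Each fl line was higher under 4-OHT, but the groups overlapped (change 0.37, SE 0.13, limma adjusted p = 0.305).

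Eif2ak3, whose kinase product PERK slows translation, stood at 8.54, 8.37 and 8.40 on the fl 4-OHT arrays, against 8.44, 8.41 and 8.19 on the fl vehicle arrays. The wt arrays held 8.44 and 8.56 under 4-OHT, against 8.51 and 8.37 under vehicle. The fl 4-OHT arrays overlapped each other group, while the fl vehicle arrays lay just below the wt 4-OHT arrays. The fl change was 0.09 (SE 0.11, limma adjusted p = 0.887).

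Xbp1, whose mRNA is spliced by IRE1 into an active factor, stood at 12.57, 12.44 and 12.40 on the fl 4-OHT arrays, against 12.59, 12.57 and 12.25 on the fl vehicle arrays. In the wt lines it stood at 12.65 and 12.46 under 4-OHT, against 12.83 and 12.33 under vehicle. The fl change was -0.01 (SE 0.11, limma adjusted p = 1). A gene-level array signal does not tell spliced from unspliced Xbp1.

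Ssr1 and Ssr3 encode subunits of the translocon-associated complex. Ssr1 stood at 13.00, 12.94 and 13.09 on the fl 4-OHT arrays, against 12.90, 12.75 and 12.52 on the fl vehicle arrays. Its wt levels were 12.55 and 12.72 under 4-OHT, against 12.63 and 12.68 under vehicle. Its fl 4-OHT arrays lay above all others. The fl minus wt difference under 4-OHT was 0.37 (SE 0.13, limma adjusted p = 0.291). Ssr3 had differences of -0.03, 0.16 and 0.79 in the fl lines. Sec61b, a subunit of the channel, had differences of -0.11, 0.07 and -0.25, and its other 2 probe sets had differences under 0.1 in size in each fl line. With 3 probe sets of one symbol, near-identical copies may share this signal, which was not tested.

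In the wt lines, which show 4-OHT and Cre activity with no floxed allele, 0 of 33 members passed by limma, as did 0 of all genes (0%). At an unadjusted p under 0.05 there were 0 members and 23 of all genes (0.147%). The members' median change was -0.01, with -0.02 in each line. Their changes had an SD of 0.11 in line 10977 and 0.15 in line 10980, against 0.30 to 0.51 in the fl lines. Over all genes tested the SD was also lower in the wt lines, 0.17 and 0.19, against 0.26 to 0.50 in the fl lines. Among the members, the largest upward wt change was 0.40 in Sel1l and the largest downward one -0.30 in Dnajb9, each in 1 line. Upward changes were seen in 12 members in line 10977 (50.8% of all genes) and in 14 in line 10980 (49.1%). With 2 wt lines these values do not show that 4-OHT was without effect.

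For the difference of the 4-OHT change between fl and wt lines, 0 of 33 members passed by limma, as did 0 of all genes (0%). At an unadjusted p under 0.05 there were 2 members, Kdelr1 and Creld2 (6.06%), against 5.82% of all genes. Up in each fl line and down in both wt lines were 4 members (12.1%), against 4.58% of all genes, and none was the reverse, against 3.49%. Under vehicle, 0 of 33 members differed between fl and wt lines, where 3 genes of all (0.0192%) did. Edem1, Edem2, Sel1l and Sec61b had an unadjusted p under 0.05 there (12.1%), against 9.83% of all genes. Under 4-OHT, 6 members did (18.2%), against 10.8%.

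**Figure D4:**
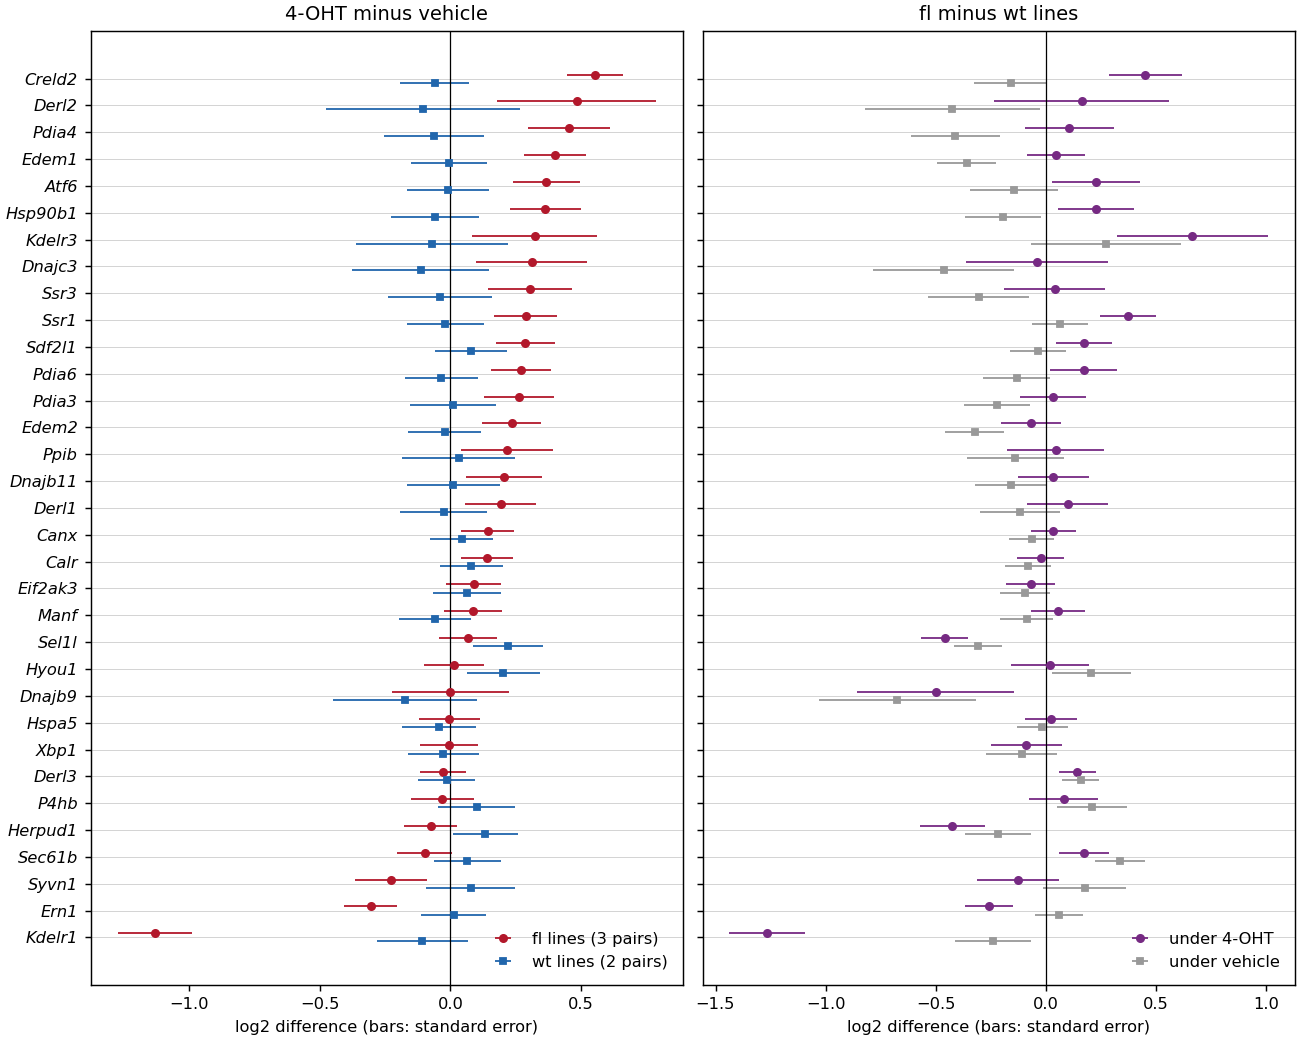
Fitted log2 differences of the 33 members with standard errors, ordered by the fl change. Left, 4-OHT minus vehicle in the fl and in the wt lines. Right, fl minus wt lines under 4-OHT and under vehicle. Kdelr1 stands apart at -1.13 and -1.26, and the other members lie between -0.31 and 0.55 on the left.

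Other genes of the pathway, listed by function, gave 0 calls in the fl lines in either direction by limma. Of 23 other folding and glycan-trimming genes tested (median change 0.09, and -0.11, 0.00 and 0.24 by fl line), 3 had an unadjusted p under 0.05 (13.0%), against 12.3% of all genes. The glucosidase gene Mogs had differences of -0.55, -0.58 and -0.60 in the fl lines (mean -0.58, SE 0.13, limma adjusted p = 0.134), against -0.11 and 0.46 in the wt lines. Ero1b, an oxidase that recharges disulphide isomerases, had differences of 0.30, 0.27 and 0.32. Of 19 other translocation and N-glycosylation genes (median 0.28), 4 had an unadjusted p under 0.05 (21.1%, against 12.3% of all genes), led by the signal receptor gene Srpr at 0.33 (SE 0.11) and the oligosaccharyltransferase gene Stt3a at 0.33 (SE 0.12). By line that list's median was 0.01, 0.16 and 0.51 in lines 10949, 10950 and 10986, in the same order as for the members.

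Of 14 other degradation genes (median 0.07, and 0.01, -0.19 and 0.15 by fl line), 4 had an unadjusted p under 0.05 (28.6%, against 12.3% of all genes). Ube2j1, which encodes an ER-anchored ubiquitin-conjugating enzyme, had differences of -1.08, -0.77 and -0.27 (mean -0.71, SE 0.16, limma adjusted p = 0.142). Aup1, a lipid droplet and degradation factor gene, had differences of -0.29, -0.37 and -0.41. The 16 other traffic genes had a median of 0.22, with 0.03, 0.16 and 0.53 by fl line and so highest in line 10986. Of them 5 had an unadjusted p under 0.05 (31.2%, against 12.3% of all genes). The COPII coat genes Sec24d and Sec31a had differences of 0.55 (SE 0.16, limma adjusted p = 0.225) and 0.25 (SE 0.09, limma adjusted p = 0.328). Sec31a was also higher under 4-OHT in the wt lines, by 0.22 and 0.31.

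Of 14 other stress signalling genes tested, 5 had an unadjusted p under 0.05 (35.7%, against 12.3% of all genes). The median change was -0.10, with -0.21, -0.09 and -0.06 by fl line. Ddit3 (CHOP), a stress-induced transcription factor, had differences of -0.58, -0.23 and -0.54 in the fl lines, against 0.17 and -0.11 in the wt lines (fl mean -0.45, SE 0.12, limma adjusted p = 0.181). Atf4, the factor translated when PERK is active, had differences of -0.30, -0.37 and -0.47, against -0.04 and 0.21 (fl mean -0.38, SE 0.10, limma adjusted p = 0.194). Neither passed over all genes.

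Some markers of more mature myeloid cells were called in the fl lines. By limma 3 of 9 monocyte and 1 of 9 late neutrophil markers rose with 4-OHT, where 0.0511% of all genes did. Others differed by line: Ccr2 was at 11.26 under 4-OHT, against 11.86 under vehicle, in line 10949, and at 11.27, against 10.68, in line 10986. The mean change was 0.93, 0.73 and 1.33 by fl line over the monocyte markers and 0.61, 0.47 and 0.77 over the late neutrophil markers. In wt lines 10977 and 10980 these means were 0.31 and -0.35, and 0.29 and -0.53. The 9 monocyte and macrophage markers, all above the level filter, summed to 10867 to 18887 linear signal units on fl 4-OHT arrays and 7248 to 11342 on fl vehicle arrays. The wt sums were 8375 to 15026 under 4-OHT and 11318 to 11924 under vehicle. Late neutrophil markers (9 of 9 above the filter) summed to 7484 to 14929 on fl 4-OHT arrays and 5440 to 9442 on fl vehicle arrays, and to 5538 to 23773 under 4-OHT and 9397 to 20054 under vehicle in the wt lines. The fl sums of both lists overlapped between cultures. The 5 primary granule markers summed to 45215 to 53648 and 43895 to 58099 there, and to 64951 to 69001 under 4-OHT and 61615 to 68234 under vehicle in the wt lines. In RNA from a mixed sorted pool, fewer cells of a type and less RNA per cell cannot be told apart, and the part of these shifts in the ER genes' values was not tested.

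By promoter, the 9 genes with an ERSE had a median fl change of 0.14, with 0.03, 0.15 and 0.25 in lines 10949, 10950 and 10986. The 20 members with a window but no ERSE had a median of 0.21, with -0.03, 0.09 and 0.44. Over the wt lines the medians were -0.03 with the element and 0.00 without it. Within the ERSE group Creld2 and Hsp90b1 were at the top and Hspa5, Derl3 and Syvn1 at or below 0.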

How the data were processed

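The authors deposited 1 linear intensity per probe set and array. The submitters' processing notes name RMA, a method that corrects background, equalises the arrays' distributions and summarises probes, and the sources used here give no version of it. Log2 was taken of these values. The platform annotation names 21789 of 35556 probe sets with 1 symbol and 1621 with several. Genes with a mean at or above the 25th percentile of probe sets were tested with limma 3.58.1 (R 4.3.3), two-sided, with Benjamini-Hochberg adjustment over 15662 genes at a threshold of 0.05. The 4-OHT changes were fitted with the line as a block, since each line was cultured both ways. Same-line deviations from the group means correlated at 0.78, 0.22 and -0.06 in lines 10949, 10950 and 10986. In wt lines 10977 and 10980 the value was 0.43, the same for both by construction, since each wt group held 2 arrays. Genotypes were compared with the line as a random block. Alternatives covered the block, filter, probe set rule, scaling, prior, array weights and each line left out. The fit was tested on simulated data. Motifs were searched by exact match in RefSeq windows. Precision is limited by how few arrays there are.

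The members and the lists were chosen with earlier results of these data known. Values on every array were given for members called in any comparison, for the 8 members with the smallest p in the fl lines, and for Hspa5, Xbp1, Atf6, Ern1 and Eif2ak3. Kdelr3, Sel1l and Ssr1 were added to these after their values were seen. Of other lists, where none passed, the 2 genes with the smallest p were named. P-values measure the spread between leukaemia lines.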

Additional observations from a re-analysis of the deposited data

Results flagged for a closer look

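For 4 members every fl line was higher with 4-OHT and both wt lines were lower. Pdia4 did so in the probe set used but not in its dimmer one, which had -0.02 in line 10950. In all 4 the test of the difference did not pass over all genes by limma. The fl minus wt difference of the log2 change was 0.612 for Creld2 (SE 0.17, adjusted p = 0.707), 0.423 for Hsp90b1 (SE 0.22, adjusted p = 0.878), 0.518 for Pdia4 (SE 0.25, adjusted p = 0.875) and 0.304 for Pdia6 (SE 0.18, adjusted p = 0.908). Without line 10986, whose vehicle array stood apart, the difference was 0.502 for Creld2, 0.232 for Hsp90b1, 0.282 for Pdia4 and 0.173 for Pdia6. The last 3 were thus 1.82, 1.84 and 1.76 times as large with that line as without it. The pattern was found in 12.1% of the 33 members and in 4.58% of all genes tested. The wt changes were small, -0.11 and -0.01 in Creld2 and -0.03 and -0.04 in Pdia6. Among the 4, Creld2 was the one whose fl 4-OHT and fl vehicle arrays did not overlap.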

How the results depend on the processing

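There were 14 alternatives, and 1 of them left out the array that stood apart in these data, the vehicle array of line 10986. Background correction could not be varied because the deposited values are already corrected. The 4-OHT changes used the line as a fixed block and the genotype comparisons used it as a random block. With no replicate block, 1 member was called in the fl lines (Kdelr1), against 0. Quantile normalization also gave 1, and so did no block without the vehicle array of line 10986, each time Kdelr1. Leaving out lines one at a time gave 0 to 2 members there, 0 to 1 for the difference between genotypes and 0 to 1, against 1, for fl minus wt under 4-OHT. Array weights gave 9, 2 and 5 members in these comparisons and 19 for fl minus wt under vehicle. Those weights rested on few arrays (5.71 for line 10949 and 0.162 for line 10986, and 116 for 1 array of the genotype fit). In the wt lines no alternative called a member. The adjusted p of Kdelr1 ran from 2.27e-05 to 0.285 in the fl lines and from 0.00235 to 0.409 for fl minus wt under 4-OHT. Over all genes the 24 calls in the fl lines became 440 without line 10986 and 0 without any other line, 8 with no level filter, 14 with a stricter one, 3 with median centring, 61 with quantile normalization and 3907 with array weights. The 101 calls of fl minus wt under 4-OHT became 0 to 51 with a line left out, 66 with median centring and 1106 with array weights. The 3 under vehicle became 0 to 15 with a line left out and 6237 with array weights. The 0 of the difference became 20 without line 10986 and 359 with array weights. The members' median was 0.0182 to 0.204 in the fl lines. In the wt lines, where it was -0.014, it became -0.013 with median centring, 0.0117 with quantile normalization and -0.0182 to -0.014 with a line left out.

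Of 461 values of single members in the fl lines, 421 kept direction and side of the threshold, 14 newly passed and 26 turned sign. With a line left out, Hspa5 ran from -0.0354 to 0.0435, P4hb from -0.123 to 0.0613, Dnajb9 from -0.349 to 0.282, Dnajc3 from -0.0362 to 0.497, Manf from -0.0319 to 0.172 and Xbp1 from -0.0815 to 0.059. Hyou1 ran from -0.0951 to 0.128, Derl2 from -0.0374 to 0.821, Kdelr3 from -0.0477 to 0.648 and Ppib from -0.034 to 0.437. With no block and no vehicle array of line 10986, Dnajb9 was -0.336, Ppib -0.0033, Manf -0.0264 and P4hb 0.0538. With array weights, Dnajb9 was -0.158, Derl1 -0.0549, Derl2 -0.117, Dnajc3 -0.0284, Kdelr3 -0.236, Ppib -0.164 and Hspa5 0.0149. With median centring, Hspa5 was 0.00311 and Xbp1 0.00119. With quantile normalization, Dnajb9 was -0.0429 and Hyou1 -0.0373. The cause was not tested.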

Other observations

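Over lines 10949, 10950 and 10986 the change with 4-OHT was -1.48, -1.14 and -0.77 in Kdelr1 and -1.08, -0.77 and -0.27 in Ube2j1. The members' median change was 0.02, 0.12 and 0.39. All of these signed values were lowest in line 10949 and highest in line 10986, so the 2 downward changes were smallest in size where the median was highest. Some other downward genes ran the opposite way. In the same line order, Ern1 had -0.20, -0.35 and -0.37 and Mogs -0.55, -0.58 and -0.60. Aup1 had -0.29, -0.37 and -0.41, and Atf4 -0.30, -0.37 and -0.47. All of them were largest in size in line 10986, while Ddit3 (-0.58, -0.23 and -0.54) followed neither order. Every value of line 10986 is set against its vehicle array, which stood apart. Kdelr1 was singled out by its test and Ube2j1 by its p, and the order of 3 lines was not tested.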
